A study of Drosophila melanogaster with 3 samples.

Results

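The genes of glycolysis were examined for binding of HLHm7 in whole embryos of Drosophila melanogaster. Glycolysis splits glucose to pyruvate in the cytosol and yields ATP and carbon for growth. Fly embryos are known to raise the expression of these genes partway through embryogenesis, and the nuclear receptor ERR is a known activator of them. HLHm7 is the product of E(spl)m7-HLH, one of the helix-loop-helix repressors of the Enhancer of split family that Notch signalling induces. Such proteins bind variants of the E-box and recruit the corepressor Groucho. The 10 genes were listed by name, 1 for each step from hexokinase to enolase and both GAPDH genes, out of 13945 protein-coding genes on the 6 chromosome arms.

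All libraries came from 1 group: embryos of both sexes, 0 to 16 h old, of a transgenic line in which HLHm7 carries GFP, with chromatin immunoprecipitated through GFP and sequenced (ChIP-seq). There were 3 biological replicates and no second genotype or treatment, and whole embryos mix tissues and stages. Each replicate had a list of 30000 regions on the dm6 build, as did the 3 replicates pooled. The authors' optimal set, labelled as thresholded for reproducibility, held 2397 regions. They were the 2397 highest of the pooled list, so a single optimal peak need not be found in every replicate. A region was given to a gene when its summit, the position of highest signal, lay in the gene or within 2 kb upstream. The signal of a region is the value deposited by the authors and has no stated scale, so it is shown as a rank within its list, 1 being the highest. The lists carry no read numbers, so depth is unknown.

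The sequences at 5 of the 8 optimal peaks of these genes are shown first: the highest peaks of Gapdh2, Pgk and Hex-A, and the Pgk peaks with the E-box nearest to a summit and with the N-box. Each window reaches 100 bp to either side of the summit, is written 5′ to 3′ on the strand of the gene, and was read from the RefSeq dm6 genome. Capitals mark matches on either strand to an E-box (CANNTG), the E(spl) class B and class C sites (CACGTG and CACGCG) or the N-box (CACNAG). The Gapdh2 window is chrX:15867889-15868089, plus strand, and the Hex-A window is chrX:9585421-9585621, plus strand. The Pgk windows, all on the minus strand, are chr2L:2751897-2752097 (peak rank 417), chr2L:2752098-2752298 (peak rank 1413) and chr2L:2754772-2754972 (peak rank 1474).
Gapdh2: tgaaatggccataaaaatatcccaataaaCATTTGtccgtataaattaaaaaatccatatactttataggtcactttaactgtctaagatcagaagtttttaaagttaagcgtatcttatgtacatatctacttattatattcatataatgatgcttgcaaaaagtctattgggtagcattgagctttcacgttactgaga
Hex-A: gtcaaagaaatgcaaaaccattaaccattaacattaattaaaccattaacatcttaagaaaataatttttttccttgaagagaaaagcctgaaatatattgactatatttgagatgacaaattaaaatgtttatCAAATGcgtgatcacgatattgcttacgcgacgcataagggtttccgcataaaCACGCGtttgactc
Pgk, peak rank 417: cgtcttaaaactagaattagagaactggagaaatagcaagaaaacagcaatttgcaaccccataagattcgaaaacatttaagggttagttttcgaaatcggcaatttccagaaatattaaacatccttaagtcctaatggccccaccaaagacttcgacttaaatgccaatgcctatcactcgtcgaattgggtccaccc
Pgk, peak rank 1413: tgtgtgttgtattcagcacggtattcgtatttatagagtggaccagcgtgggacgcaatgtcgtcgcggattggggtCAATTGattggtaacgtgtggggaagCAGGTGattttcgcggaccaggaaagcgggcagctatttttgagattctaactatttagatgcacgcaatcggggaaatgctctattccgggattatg
Pgk, peak rank 1474: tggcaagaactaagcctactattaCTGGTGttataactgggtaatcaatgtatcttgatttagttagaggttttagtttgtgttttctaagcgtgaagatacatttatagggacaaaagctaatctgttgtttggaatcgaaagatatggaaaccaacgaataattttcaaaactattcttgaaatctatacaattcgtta
The Gapdh2 window held a single capital match, 69 bp before the summit, and the strongest Pgk window held none.

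Of the 10 glycolytic genes, 4 had an optimal peak: Gapdh2, Pgk, Hex-A and Eno. The same rule called 17.1% of all protein-coding genes. Each of the 10 genes has at least 2 annotated start sites, and among all genes of that kind 31.0% had an optimal peak, a background chosen after the data were seen. The members' 40.0% is a count of 4 genes, and no test was made on it. Counting only summits within 500 bp of a start site kept all 4, against 10.3% of all genes and 18.7% of genes with at least 2 start sites. The steps without an optimal peak were those of Pgi, Pfk, Ald1, Tpi and Pglym78, and of the 2 GAPDH genes Gapdh1 had none.

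Gapdh2 had the highest-ranked peak of the 10 genes. It encodes one of the 2 glyceraldehyde phosphate dehydrogenases of the fly, the enzyme that oxidises the triose phosphate and reduces NAD. Its best region ranked 453 in replicate 1, 178 in replicate 2 and 107 in replicate 3, with deposited signals of 76.0, 145 and 123. In the optimal set the peak ranked 182 of 2397 with a signal of 348. The summit lay at −156 bp from the first Gapdh2 start site, outside the exons, and the summits of the replicates fell within 23 bp of one another. The optimal region was 110 bp wide (X, 15867882 to 15867991), and 0.960% of optimal regions were no wider. The most common width was 384 bp, and 10.9% of optimal regions were narrower than that. In replicates 1, 2 and 3 the Gapdh2 region was 376, 384 and 100 bp wide, so the narrow width was not seen in every replicate. The summits of replicates 1 and 3 lay 14 and 17 bp to the right of the pooled one, beyond the edge of the 110 bp region.

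Gapdh1, its paralogue, encodes the other GAPDH and had its best regions at ranks 2467, 3715 and 14359 in replicates 1, 2 and 3. Gapdh2 ranked ahead of Gapdh1 in 3 of 3 replicates, and the difference in log10 rank was −0.74, −1.32 and −2.13. The mean difference, Gapdh2 minus Gapdh1, was −1.39 ± 0.70 (SD, n = 3), a 24.8-fold gap in rank. The exact two-sided sign-flip permutation test gave p = 0.25, which is the smallest value that 3 replicates allow. In replicate 1 the best Gapdh1 region was at −527 bp, nearest to the start site of PolZ1, which encodes a DNA polymerase subunit. With regions within 500 bp of a start site only, Gapdh1 ranked 20199, 3715 and 14359, and the mean log10 difference was −1.70 ± 0.41 (SD, n = 3), again with p = 0.25 by the exact permutation test.

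**Figure D1:**
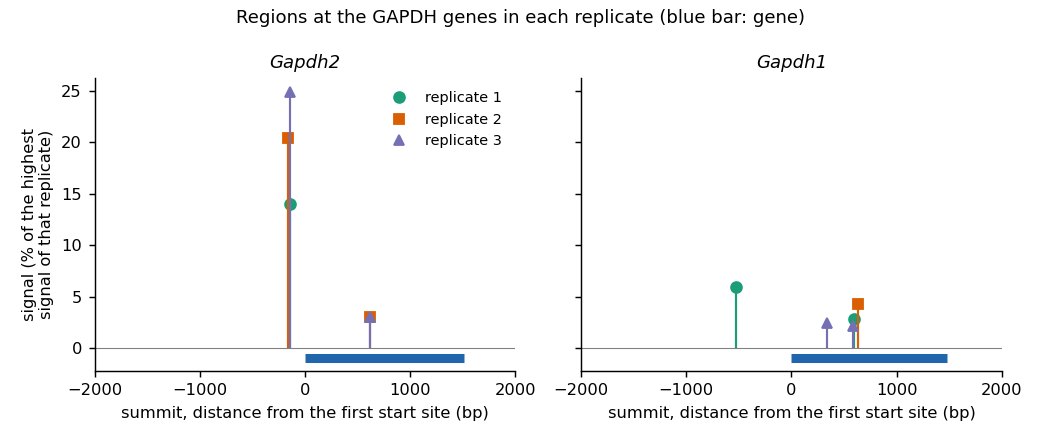
Regions at Gapdh2 (left) and Gapdh1 (right) in each replicate, by the distance of the summit from the first start site (bp) and the signal as a percentage of the highest signal of that replicate. The upstream Gapdh2 region stood at 14.0, 20.4 and 24.9% in replicates 1, 2 and 3, and the highest Gapdh1 region stood at 5.95%, in replicate 1.

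The plot of both GAPDH genes also shows weaker regions inside each gene. Gapdh2 had an internal region 556 bp past a start site, at rank 9745 in replicate 2 and 7975 in replicate 3, and none in replicate 1. The coding sequences of the pair are 88.8% identical (884 of 996 bp), and the longest identical run in the genes with their 2 kb upstream is 38 bp. The internal summits of both genes lay in coding sequence with 88.8 to 92.0% identity to the other gene, so how reads were divided there is uncertain. In the 500 bp upstream of the genes the longest shared run was 8 bp, and the upstream Gapdh2 region lies in that part. Summed over all regions of a gene, the signal averaged 21.8% of the highest signal for Gapdh2 and 5.91% for Gapdh1.

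Pgk, which encodes phosphoglycerate kinase, the first ATP-yielding step, had 5 optimal peaks, more than any other member. Only 0.165% of all genes, 23 in number, had 5 or more. Its strongest peak (2L, 2751805 to 2752188, in an intron) had a signal of 243 and ranked 417. The best Pgk region ranked 361, 400 and 399 in replicates 1, 2 and 3, the tightest set of ranks among the members. These ranks are not of a single site, as the summits were at 2751960, 2751979 and 2752154. The replicate 3 summit lay at 157 bp from that of the peak ranked 417. It lay at −44 bp from that of the Pgk peak ranked 1413. Pgk spans 6189 bp and has 5 annotated start sites, and the part of gene length in its count was not tested.

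The Pgk peaks were spread over the gene and its upstream part, and some of them were shared with Bacc, a neighbour that overlaps Pgk on the other strand. The second peak had a signal of 159, ranked 988, and lay at −245 bp from an internal Pgk start site, in 5′ untranslated sequence of a longer transcript. Another, with a signal of 134 and rank 1333, lay in an intron at −236 bp from a different internal start site. The peaks ranked 417, 1413 and 1474 were nearest to a start site of Bacc, at −448, −247 and 1639 bp from it. The last of them lies upstream of Pgk and inside Bacc, and it can be given to either gene. The peaks ranked 417 and 1413 overlap, and replicate 3 had a single region that matched both, so they are not separate in every replicate.

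Support in the replicates differed among the Pgk peaks. The peak ranked 988 had regions at ranks 1652, 724 and 1106 in replicates 1, 2 and 3, all among the 2397 highest. The intronic peak ranked 1333 had ranks of 2616, 502 and 3903, so that replicate 2 alone placed it among the 2397 highest. The peak upstream of Pgk had ranks of 1691, 2538 and 1095.

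**Figure D2:**
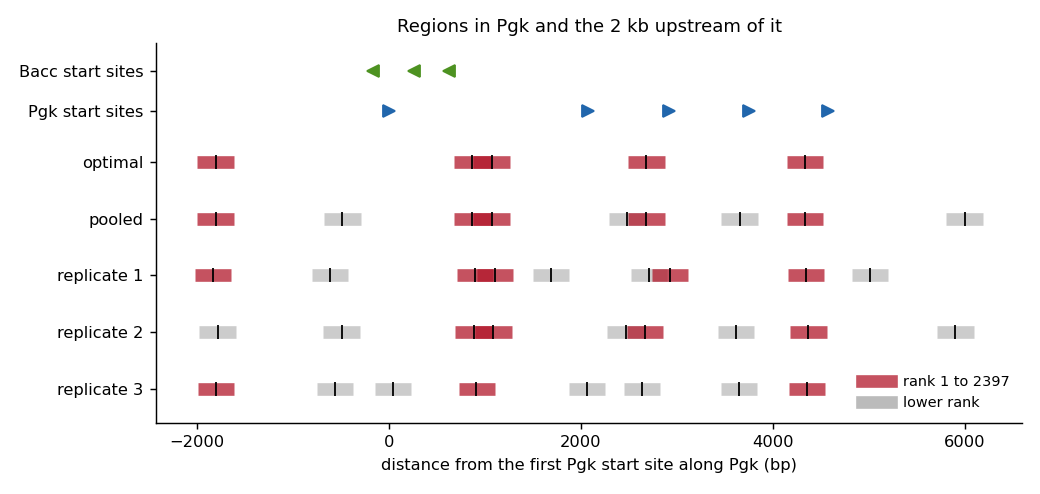
Regions in Pgk and the 2 kb upstream of it, by distance along the gene from its first start site (bp), with 1 row for each list; bars are regions, black ticks are summits, red bars rank 1 to 2397 in their list, and triangles are start sites of Pgk and Bacc. The 5 optimal peaks form 4 clusters, of which the pair in the middle lies between the first and second Pgk start sites.

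Hex-A encodes the main hexokinase, which phosphorylates glucose at the entry of the pathway. Its optimal peak (X, 9585329 to 9585712) had a signal of 192 and ranked 685, with the summit at −154 bp from the first start site. It was found at ranks 893, 558 and 658 in replicates 1, 2 and 3, with summits within 40 bp. All 3 replicates placed it among their 2397 highest regions.

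Eno encodes enolase, which forms phosphoenolpyruvate, and its peak was the weakest of the 8 optimal peaks at these genes. Its signal was 5.79% of the highest in the set, and it ranked 2021 and lay at −203 bp from an internal start site (2L, 1727728 to 1728111). Replicate 1 had no region with a summit within 200 bp of it, whereas replicates 2 and 3 had regions at ranks 1948 and 791. The best Eno region of replicate 1 ranked 6063 and was nearest to the start site of Rrp40, an exosome subunit gene that overlaps Eno on the other strand.

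Among the 6 members without an optimal peak, Pgi came nearest to the set. It encodes phosphoglucose isomerase, and its best region ranked 3389, 3790 and 1476 in replicates 1, 2 and 3, with every summit within 55 bp of a start site. Only replicate 3 placed it among the 2397 highest. Pglym78, a phosphoglycerate mutase gene, had ranks of 3147, 2435 and 4812, with summits at −260, −35 and 33 bp from a start site. The region of replicate 1 was nearer to a start site of its neighbour CG11882. Replicate 2 thus fell just short of its 2397 highest.

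The remaining genes without an optimal peak had low or missing regions. Ald1, which encodes the aldolase that splits the hexose bisphosphate, had ranks of 4924, 8444 and 13580 in replicates 1, 2 and 3. Tpi, the triose phosphate isomerase gene, had ranks of 4819 and 7730 in replicates 1 and 2 and no region in replicate 3. Pfk, which encodes phosphofructokinase, the committing step, had no region in replicate 1 or in the pooled list. Its best regions in replicates 2 and 3 ranked 3437 and 5137 and lay 5857 and 5833 bp past its nearest own start site, with that of the next gene, dmpd, closer. The full lists include background, as their names state, and 76.0, 76.5 and 75.2% of all genes had a region in the full lists of replicates 1, 2 and 3, against 9, 10 and 9 of the 10 members.

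**Figure D3:**
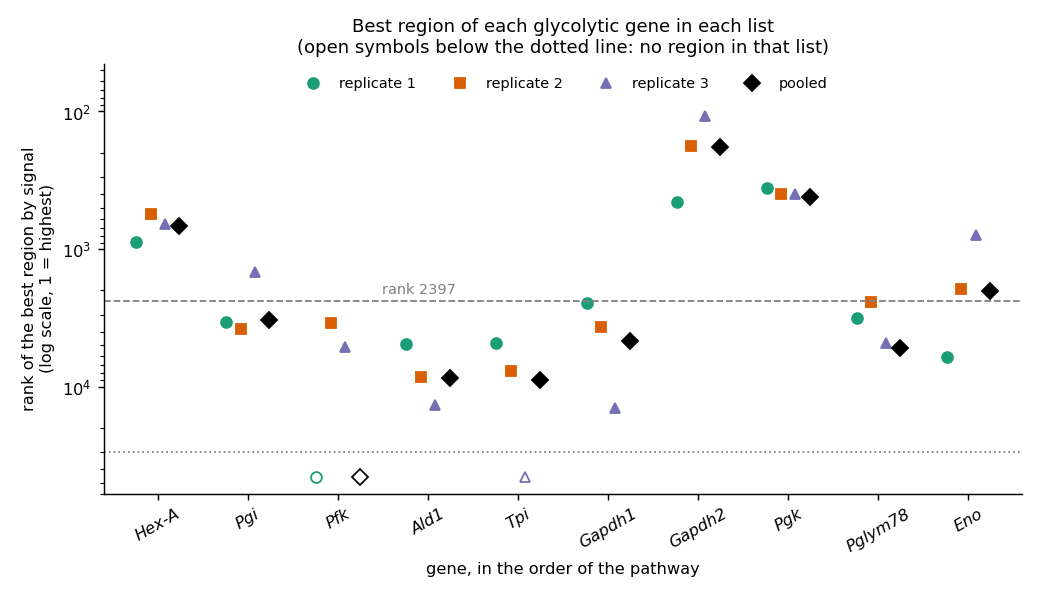
Rank by signal of the best region of each glycolytic gene (log scale, 1 at the top) in replicates 1, 2 and 3 and the pooled list, with genes in pathway order; the dashed line is rank 2397 and open symbols mark lists without a region. Gapdh2, Pgk and Hex-A lie above the line in every list, and Pfk and Tpi each lack a region in at least 1 list.

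In order of the mean log10 rank of the best region over the replicates, the 8 genes with a region in each list were Gapdh2 (2.31 ± 0.32), Pgk (2.59 ± 0.03), Hex-A (2.84 ± 0.10), Eno (3.32 ± 0.44), Pgi (3.43 ± 0.22), Pglym78 (3.52 ± 0.15), Gapdh1 (3.71 ± 0.40) and Ald1 (3.92 ± 0.22; SD, n = 3 each). Gapdh2 and Pgk differed by less than the spread of their difference, 0.28 against an SD of 0.34, and replicate 1 placed Pgk ahead. Pgk stood ahead of Hex-A by 0.25 (SD 0.13) and Hex-A ahead of Eno by 0.49 (SD 0.38), each in 3 of 3 replicates. The best Pgk regions used here were intronic, nearest to a start site of Bacc and not at the same site in every replicate. With regions within 500 bp of a start site only, Pgk ranked 1652, 502 and 1106 in replicates 1, 2 and 3. By that rule Hex-A ranked 893, 558 and 658, ahead of Pgk in replicates 1 and 3. The steps from Eno to Pgi, from Pgi to Pglym78 and from Pglym78 to Gapdh1 were all smaller than their SD. The step from Gapdh1 to Ald1 was 0.21 with an SD of 0.21.

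Taken by replicate, 3, 4 and 5 of the 10 genes had a region among the 2397 highest in replicates 1, 2 and 3, where the background was 17.3, 16.6 and 17.2% of all genes. Gapdh2, Pgk and Hex-A had one in every replicate, against 11.5% of all genes. Eno joined them when 2 replicates were enough (15.9% of all genes) and Pgi when 1 was enough (23.7%). Of the 8 optimal peaks at these genes, 5 (62.5%) were among the highest regions of every replicate, against 59.9% of all 2397 optimal peaks. The overlapping Pgk peaks ranked 417 and 1413 are both among these 5 and match the same region of replicate 3. With summits within 50 bp it was 4 of 8, against 41.5% of all.

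Most members had a region, weak or strong, within 500 bp of a start site. In the full lists 8 of the 10 genes had a summit within 500 bp of a start site in every replicate, the exceptions being Pfk and Tpi. The background was 23.6% of all genes and 41.8% of genes with at least 2 start sites. Without the distance limit, 8 members had a region in every replicate, against 57.8% of all genes. The regions within 500 bp were not always the same one or at the start itself. The Gapdh1 summits lay in coding sequence, 446, 479 and 187 bp past a start site in replicates 1, 2 and 3. Those of Ald1 lay at 429, −287 and −352 bp from different start sites. The Eno region of replicate 1 ranked 14237 and lay at −471 bp, nearer to a start site of CG31937.

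**Figure D4:**
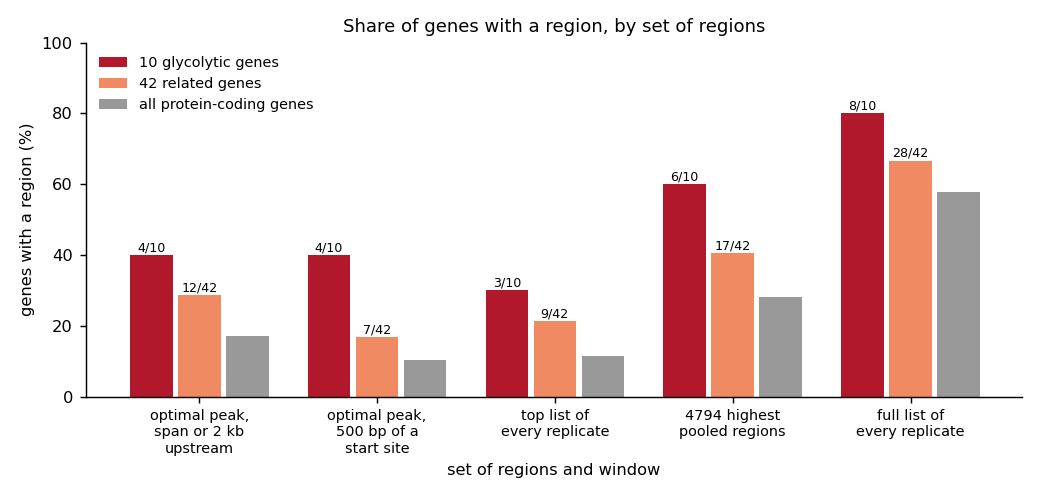
Share of genes with a region (%) among the 10 glycolytic genes, 42 related genes of the wider list and all protein-coding genes, for 5 sets of regions; numbers over bars are genes with a region out of genes counted. With optimal peaks the shares were 40.0, 28.6 and 17.1%, and with the full list of every replicate 80.0, 66.7 and 57.8%.

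The plot of shares shows that the members stood above all genes in each of the 5 sets, on counts of 3 to 8 genes. Lengthening the optimal set to the 4794 highest pooled regions brought in Pgi, at pooled rank 3272, and Gapdh1, at pooled rank 4673. That made 6 of 10 members, against 28.1% of all genes.

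The optimal peaks of the members lay mostly just upstream of start sites. In 5 of the 8 the summit was at −245 to −154 bp from a start site of the member itself, at Gapdh2, Hex-A, Eno and a pair of Pgk peaks. Taking the gene span alone left 2 members with an optimal peak, Pgk and Eno, against 7.87% of all genes. By the nearest start site of any gene, 7 of the 8 summits were within 500 bp and 6 were 100 to 300 bp upstream, with a start site of Bacc the nearest to the Pgk peaks ranked 417 and 1413. By that rule 44.7% of all optimal peaks were within 500 bp and 15.7% were 100 to 300 bp upstream. Of all optimal peaks within 500 bp, 81.5% were upstream, so this side is common in the whole set. Member peaks were taken only in a gene or within 2 kb upstream, and all optimal peaks without that limit. The shares are therefore not of like sets.

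The 8 peak windows were searched for the E(spl) sites and the E-box. A class C site was in the Hex-A window alone, 89 bp past the summit, against 3.21% of all 2397 optimal windows. The N-box was in 1 Pgk window, that of the peak ranked 1474, against 21.7% of all windows, and no window held a class B site (2.88% of all). The looser E-box, which covers the class B letters, was in 5 of 8 windows, against 64.4% of all. The closest E-boxes to a summit were at Pgk, 6 bp from that of the peak ranked 1413 and 8 bp from that of the peak ranked 1333.

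Core promoter and other elements were counted in the same windows. No member window held the DRE (TATCGATA; 3.38% of all), the Motif 1 core (GGTCACAC; 1.88%), the Zelda site (CAGGTAG; 0.709%) or the ERR element (AAGGTCA; 1.13%). The TATA box letters TATAAA were in 3 windows, against 28.8% of all, and TCAGT and GAGAG were in 1 each, against 36.0% and 24.2%. In the 300 bp promoters of the 10 genes, from 250 bp before to 50 bp after the first start site, the ERR element was found at Pglym78 alone, against 2.11% of all promoters. G and C made up 28.9% of the Gapdh2 window, 31.3% of the Hex-A window and 32.3% of the Eno window, while the Pgk windows held 31.3 to 47.8%. The median of all optimal windows was 37.3%, with quartiles of 33.3 and 41.8%.

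None of the 8 paralogues of the members had an optimal peak, where the share of all genes was 17.1%. This is a count of few genes, 7 of which have a single start site. The 17.1% also covers genes with at least 2 start sites, of which 31.0% had an optimal peak, so it is not a matched share. Hex-C, Hex-t1 and Hex-t2 are further hexokinase genes. Their best regions in any replicate ranked 9478, 12131 and 12131, the last being a single region near both Hex-t genes, where Hex-A reached 558. Ald2, a second aldolase gene, had ranks of 15039 and 7190 in replicates 1 and 2 and no region in replicate 3, against 4924, 8444 and 13580 for Ald1, so Ald2 was ahead in replicate 2. For Pglym78, Pglym87 had no region in any list and CG7059 reached 6224. CG9961, a phosphoglycerate kinase paralogue that lies on the same strand near Pgk, reached 7904, and CG30486, an enolase paralogue, reached 14594. Coding identity to the member was 58.5 to 78.2% for these 8 genes.

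Genes of the branches of glycolysis, their paralogues and regulators formed a wider list of 42 genes, of which 12 (28.6%) had an optimal peak, against the same 17.1% of all genes. Among the 21 of them with at least 2 start sites, 9 (42.9%) had one, against 31.0% of all such genes. Within 500 bp of a start site 7 of the 42 (16.7%) had an optimal summit, against 10.3% of all genes. Of the 21 with at least 2 start sites 5 (23.8%) did, against 18.7% of all such genes. The gene with the highest-ranked peak was Zw, which encodes glucose phosphate dehydrogenase of the pentose phosphate pathway. Its peak had a signal of 345 and rank 186, next to the 182 of Gapdh2, but lay in an intron at −1105 bp from its nearest own start site. Pgm1, a phosphoglucomutase gene of glycogen breakdown, had a peak of rank 418 at −214 bp. Gpdh1, which encodes the glycerol phosphate dehydrogenase that draws on triose phosphate, had one of rank 749 at −16 bp. The peak given to Ldh, the lactate dehydrogenase gene, ranked 1528 and lay at −1953 bp.

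Among the other enzyme genes of the wider list, the trehalase gene Treh (rank 552), Pgm2a (rank 1540) and the pyruvate carboxylase gene PCB (rank 2066) had their highest peaks nearest to the start sites of CG10527, tsu and CG30010. Pfrx, which encodes a bifunctional phosphofructokinase and bisphosphatase, had a peak of rank 2097 at −227 bp from a start site. PyK, which encodes pyruvate kinase, the step after enolase, had no optimal peak, and its best regions ranked 11313 and 4127 in replicates 1 and 3 with none in replicate 2.

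The optimal peaks most like that of Gapdh2 in their ranks over the 3 replicates were nearest to Phyhd1, CG5611 and Src64B. Likeness was the sum of absolute differences in log10 rank over the replicates, 0.24, 0.27 and 0.27, among 2334 peaks compared. The Phyhd1 peak ranked 334, 151 and 99 in replicates 1, 2 and 3, and its summit was at −242 bp from the start site. Like that of Gapdh2, the regions of these peaks were narrower than the most common width of 384 bp. They ran from 10681138 to 10681265 on 3R (Phyhd1), 27636074 to 27636311 on 3R (CG5611) and 4613218 to 4613332 on 3L (Src64B).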

How the data were processed

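Peak lists on dm6 were used, for 3 replicates of 1 group and for the replicates pooled, together with the optimal set. Per the labels, chromatin was sonicated to a size range of 200 to 800 bp. Regions were called by the authors. The control reads are not named in the sources used, and no control was analysed here. For the caller, aligner, versions and reproducibility threshold, nothing is stated in the sources. The deposited signal has no stated scale, and the deposited q-value, as −log10, ran from 1.83 to 3.32 in the optimal set. The deposited summit offset was added to the region's start. The optimal peaks are the 2397 highest of the pooled list, 7.99% of it.

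Regions were ranked by signal within each list and placed on Ensembl release 115 gene models (dm6), whose arms held every region except 1, which lay on another sequence. Sequence came from the RefSeq genome of the same build. Lists cut to their 2397 highest regions are the top lists, and summits within 200 bp were matched. Motifs were counted on both strands. Of 49 symbols in the wider list, 7 matched no gene by that symbol, 3 of them other names of genes already counted. The 10 genes, the wider list, the motifs and the tests were chosen with earlier results of these data known. Named are all members, their paralogues, wider-list genes with an optimal peak, nearest genes and the 3 peaks most like that of Gapdh2; PyK, tgo and sug, chosen after their values were seen, were added. The permutation test takes the library as its unit, and the labels call the libraries biological replicates. Where all 3 differences share a sign, as for the GAPDH genes, its p is 0.25 whatever their spread. Software was Python 3.11.15, NumPy 2.4.6, pandas 2.3.3, SciPy 1.17.1, Biopython 1.88 and Matplotlib 3.10.9. Assignment of regions was tested on simulated data.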

Additional observations from a re-analysis of the deposited data

How the results depend on the processing

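Across the comparisons, 34 alternatives were run, of which 30 kept the count within 1.5 times or the difference in direction and side of the threshold, and 4 moved. With the gene span alone 2 members had an optimal peak, in place of 4, since the Gapdh2 and Hex-A summits lie upstream of those genes. For the wider list the count of 12 fell to 7 within 500 bp of a start site, to 6 with the gene span alone and to 6 with the upper part of the set by signal. Without a replicate in turn, 3 to 4 members had an optimal peak supported by both others and 9 genes of the wider list did, 3 to 4 members had a top region in both others, and the Gapdh2 minus Gapdh1 difference ran from −1.72 to −1.03. Eno was the member without such a peak when replicate 2 or 3 was left out. With windows reaching 50 bp, the class C, N-box and initiator matches were lost from the member windows. No paired analysis of groups was possible because there is only 1 group; the GAPDH genes were compared within each replicate. Depth is unknown, 3 replicates cannot give a p below 0.25, and counts over 10 genes move by 10 percentage points a gene.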

Other observations

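Among the 6 regulators of glycolytic genes on the wider list, 4 had an optimal peak, against 17.1% of all genes. Of these, sima, ERR and Mondo have at least 2 start sites, and 31.0% of all such genes had an optimal peak. They were sima, which encodes the fly hypoxia-inducible factor (4 peaks over a gene of 63488 bp, the highest at rank 399), bigmax (rank 492, nearest to the start site of Hmu), ERR (2 peaks, the higher at rank 1392 and at −282 bp from a start site) and Mondo (rank 2276, in a coding exon). Mondo spans 23973 bp. The ERR peak ranked 1829 was nearest to the start site of Atg18a, and the sima peak ranked 1974 to that of CG7950. Mondo and bigmax encode partners in the sensing of sugar. The regulators tgo and sug had none. The higher ERR peak was found at ranks 1545, 1219 and 1265 in replicates 1, 2 and 3, and the bigmax peak at 659, 516 and 459. The Mondo peak ranked 1352, 2608 and 3826, so that replicate 1 alone placed it among its 2397 highest. Of the 4 sima peaks, those ranked 1974 and 2131 were also among the highest regions of a single replicate. Of the 36 other genes of the wider list, 8 (22.2%) had an optimal peak.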
